A study of Mus musculus with 4 samples.

Results

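Gonadotrophs are the cells of the anterior pituitary that make luteinizing hormone and follicle-stimulating hormone, and 274 of the 29899 cells kept in this single-cell RNA series met the gate for them. Each cell had at least 500 detected genes, at most 20% of its unique molecular identifiers (UMIs, 1 per captured transcript molecule) from mitochondrial genes, and at least 1 UMI of 2 or more of Gnrhr, Nr5a1, Fshb and Foxl2. It also had at least 3 UMIs of Lhb, or Cga at 1% or more of its UMIs, and Tshb under 0.2% of its UMIs. The cells were thus selected on the measured values of these genes, and the levels of these genes below are a description and not a finding.

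The gland came from mice that overexpress p25 (p25OE) and from wild-type (WT) littermates, each at 14 and at 40 weeks of age, with 1 library for each of the 4 groups. p25 is a truncated form of p35, the product of Cdk5r1, and is an activator of the kinase Cdk5; the study's title links this kinase to Mcm2 and to pituitary tumours. Both genotypes carry the strain label C57BL/6- B6;CBA-BiTg. The promoter and the cells that drive the transgene, the sex and oestrous cycle stage of the animals, and the number of glands pooled in a library are not given in the labels. The labels speak of 2 runs without assigning a library to either. With 1 library per group there is no replicate check anywhere in what follows: a 95% interval covers counting error only, no p-value was computed, and genotype, animal and library cannot be told apart.

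Gonadotropins are heterodimers of a common α subunit, encoded by Cga, with a β subunit, encoded by Lhb or Fshb, that gives the hormone its identity. The hypothalamic peptide GnRH acts in pulses on its receptor, Gnrhr, which signals through Gq, protein kinase C, calcium and MAP kinases to early transcription factors such as Egr1 and the AP-1 proteins. Egr1, the nuclear receptor SF-1 (Nr5a1) and Pitx1 drive Lhb, whereas activins act through Smad proteins and Foxl2 on Fshb.

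The promoters of the 3 subunit genes and of Tgfbr3l are shown because these genes carry the identity of the cells, and Tgfbr3l was the most abundant of the genes that marked the members without being part of the gate. All 4 were found in the RefSeq promoter table (GRCm38.p6), which holds 250 bases before to 50 after each gene's start, so each window spans upstream sequence and the first bases of the transcript. Capitals mark matches, on either strand, to the SF-1 element CAAGGNCA, the EGR element TGGGGGNG, the homeodomain core GATTA and the TATA box TATAAA; no 2 matches overlap. The EGR letters were chosen after the Lhb sequence had been read.
Lhb, chr7:45420696-45420995, plus strand: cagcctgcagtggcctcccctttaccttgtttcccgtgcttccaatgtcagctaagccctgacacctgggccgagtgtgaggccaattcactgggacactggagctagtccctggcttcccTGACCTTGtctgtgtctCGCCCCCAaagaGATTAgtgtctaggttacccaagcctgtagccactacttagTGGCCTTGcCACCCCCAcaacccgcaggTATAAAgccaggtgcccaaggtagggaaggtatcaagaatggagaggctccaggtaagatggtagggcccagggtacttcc
Fshb, chr2:107059602-107059901, minus strand: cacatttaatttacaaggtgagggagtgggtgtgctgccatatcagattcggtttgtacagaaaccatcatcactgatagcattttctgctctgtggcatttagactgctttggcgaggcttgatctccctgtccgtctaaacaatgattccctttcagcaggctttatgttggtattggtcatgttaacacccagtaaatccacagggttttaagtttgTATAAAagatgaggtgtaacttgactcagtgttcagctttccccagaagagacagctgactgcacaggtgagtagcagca
Cga, chr4:34893529-34893828, plus strand: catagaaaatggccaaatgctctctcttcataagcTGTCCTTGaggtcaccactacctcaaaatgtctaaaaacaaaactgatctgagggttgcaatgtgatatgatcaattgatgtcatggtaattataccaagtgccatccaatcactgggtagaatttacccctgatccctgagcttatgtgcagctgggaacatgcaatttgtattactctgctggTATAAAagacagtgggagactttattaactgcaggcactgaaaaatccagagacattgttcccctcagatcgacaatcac
Tgfbr3l, chr8:4247964-4248263, plus strand: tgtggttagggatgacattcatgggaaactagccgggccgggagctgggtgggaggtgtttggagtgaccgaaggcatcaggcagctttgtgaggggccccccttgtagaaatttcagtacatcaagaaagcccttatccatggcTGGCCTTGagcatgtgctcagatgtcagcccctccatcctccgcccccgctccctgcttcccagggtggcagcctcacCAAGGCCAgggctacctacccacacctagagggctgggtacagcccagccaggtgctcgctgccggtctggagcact

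The Lhb window held 2 SF-1 elements, whose first bases lay at positions -129 and -59 from the start, 2 EGR elements at -112 and -50, and 1 homeodomain core at -100 between them. The Tgfbr3l window held 2 SF-1 elements, at -105 and -27, and the Cga window 1, at -215. No SF-1 or EGR letters were matched in the Fshb window, which held a TATA box at -30, as the Cga window did; that of Lhb lay at -31. Of 32851 promoters in the table, 6.71% held at least 1 SF-1 element and 0.35% at least 2, 14.3% held an EGR element, 22% the homeodomain core and 13.6% the TATA box. These matches are letters in a window and say nothing about binding in these cells.

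At 14 weeks the gate took 116 of 7667 cells in p25OE (1.51%, exact binomial interval 1.25 to 1.81) and 84 of 6579 in WT (1.28%, 1.02 to 1.58). At 40 weeks it took 6 of 7726 cells in p25OE (0.0777%, 0.0285 to 0.169) and 68 of 7927 in WT (0.858%, 0.667 to 1.09). Of these 68 WT members 11 entered through Lhb with Cga under 1% of their UMIs, against 0 of the 6 in p25OE. Levels of Lhb and Cga in other cells at this age are given below. The intervals of the 2 genotypes overlap at 14 weeks and do not overlap at 40 weeks. A share depends on every other cell type in the library, and 4394 of the p25OE cells at 40 weeks had Pomc at 5% or more of their UMIs, against 978 WT cells.

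Depth differed between the libraries. The libraries held 53714895 to 95242353 UMIs. The members' median UMI count was 8462 in p25OE and 20392 in WT at 14 weeks, and 7268 in p25OE and 8052 in WT at 40 weeks. Summed over members this came to 1031654 UMIs in p25OE and 1814204 in WT at 14 weeks, whereas at 40 weeks p25OE members held 41438 UMIs and WT members 596886. Where a gene is said below to be seen in a number of members, the count is without thinning unless stated. WT members at 14 weeks were deeper, and the part of depth in such counts was not tested. Median mitochondrial shares were 9.34% in p25OE and 9.14% in WT members at 14 weeks. No member of a library shared its barcode with a member of another. Over all deposited barcodes, the 2 libraries of 14 weeks shared 32 and the 2 of 40 weeks shared 135, while a library of one age and a library of the other shared 1 to 5, although the labels name the same kit for all 4; whether the ages differ in barcode set or run was not tested.

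Some members also carried the transcripts of another cell type at a high level, and such cells are called members with a second cell type: Gh or Prl at 10% or more of UMIs, Pomc at 5% or more, or at least 2 of the macrophage markers C1qa, C1qb, C1qc and Csf1r. They were 21 of 116 in p25OE (18.1%) and 28 of 84 in WT (33.3%) at 14 weeks, and 1 of 6 in p25OE and 31 of 68 in WT at 40 weeks. Gh was high in 8 of them in p25OE and in 17 in WT at 14 weeks. At 40 weeks 1 p25OE and 26 WT members had at least 2 macrophage markers, but so did 9.23% of the Gh-high p25OE cells and 53.1% of the Gh-high WT cells. No doublet caller was run; many of the 14-week values are therefore also given without these cells, and their part in a result was not tested beyond that.

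Markers of T cells, fibroblasts and macrophages were low in the members, whereas those of stem cells in WT were not. At 14 weeks the 4 T and NK cell markers summed to 0 UMIs in p25OE and 1 in WT, the 5 fibroblast and mural markers to 6 in p25OE and 2 in WT, and the 5 endothelial markers to 10 in p25OE and 11 in WT. The 7 macrophage markers summed to 129 CPM (UMIs per 1000000 UMIs of those cells) in p25OE members and 399 CPM in WT members, against 2075 CPM in the other p25OE cells and 1757 CPM in the other WT cells. Without the members with a second cell type these sums were 64.4 CPM in p25OE and 103 CPM in WT. The 4 stem cell markers Sox2, Sox9, Aldh1a2 and Mia summed to 61.1 CPM in p25OE members and 181 CPM in WT members, against 176 CPM in the other p25OE cells and 185 CPM in the other WT cells. With members with a second cell type left out, the stem cell sum was 72.2 CPM in p25OE and 303 CPM in WT, so it was higher in WT either way; its part in the ratios below was not tested. Of its UMIs Mia had 31 in p25OE and 209 in WT. The pituicyte markers were near the level of the other cells, at 16.5 CPM in p25OE members and 11.02 CPM in WT members, against 14.3 CPM in the other p25OE cells and 13.8 CPM in the other WT cells, with Gfap at 0 in the members of both. Endothelial markers stood at 9.69 CPM in p25OE and 6.06 CPM in WT members, against 47.02 CPM in the other p25OE cells and 6.69 CPM in the other WT cells. Thyrotroph markers outside the gate went both ways at 14 weeks. Dio2 stood at 37.8 CPM in p25OE members and 39.1 CPM in WT members. In the other cells it stood at 10.1 CPM in p25OE and 11.3 CPM in WT. Pou1f1 stood at 36.8 CPM in p25OE members and 90.4 CPM in WT members, against 123 CPM in the other p25OE cells and 214 CPM in the other WT cells. Trhr had 0 UMIs in p25OE and 2 in WT members, but was also scarce in the other cells, at 1.1 CPM in p25OE.

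Cga was the most abundant of the gate's transcripts in these 3′ UMI counts, which are 1 per molecule whatever the transcript's length. It took a median of 5.15% of a member's UMIs in p25OE (range 0.321 to 28.2%) and 7.07% in WT (0.0622 to 24.1%) at 14 weeks. Lhb took 0.419% in p25OE (0 to 1.72%) and 0.542% in WT (0 to 1.83%). Fshb was the most uneven of the 3 subunit genes: its median was 0.0714% in p25OE and 0.0464% in WT, while its highest member reached 1.36% in p25OE and 1.23% in WT. Without the members with a second cell type the medians were 5.97% in p25OE and 10.4% in WT for Cga, 0.591% in p25OE and 0.748% in WT for Lhb, and 0.0753% in p25OE and 0.15% in WT for Fshb. The order of the genotypes for the Fshb median therefore turned round with the choice of cells. For each subunit the cells of the genotypes overlapped over almost the whole range at 14 weeks. Tshb-high cells, the thyrotroph-like class that shares the α subunit, had median Cga of 5.25% in p25OE and 6.47% in WT and median Lhb and Fshb of 0.

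**Figure D1:**
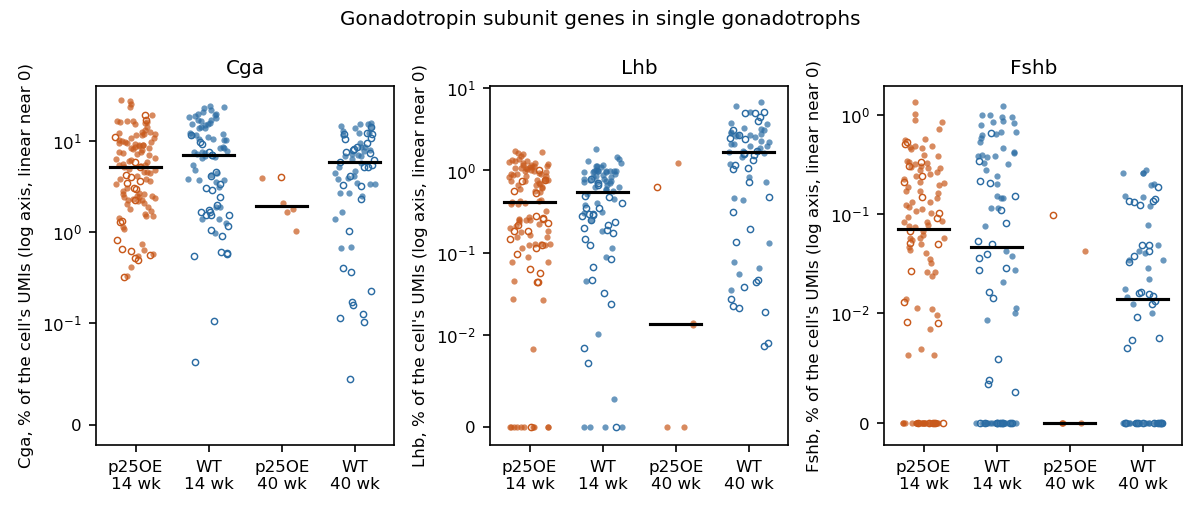
Percent of each member's UMIs from Cga, Lhb and Fshb, 1 point per cell, in the 4 libraries (log axis, linear near 0); bars are medians and open circles are members with a second cell type. At 14 weeks the clouds of p25OE and WT overlap for all 3 genes, and at 40 weeks the 6 p25OE members have a median Lhb of 0.0138% against 1.69% in WT.

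Gnrhr, the GnRH receptor, had a median of 0.0566% of UMIs in p25OE and 0.0362% in WT members at 14 weeks. Foxl2, a forkhead factor needed for Fshb, had 0.0217% in p25OE and 0.0145% in WT. Nr5a1 had 0.00928% in p25OE and 0.00832% in WT. Without the members with a second cell type the medians of Gnrhr were 0.0641% in p25OE and 0.0533% in WT, those of Foxl2 0.0233% in p25OE and 0.0215% in WT, and those of Nr5a1 0.0102% in p25OE and 0.0123% in WT. These medians amount to few UMIs per cell. All 4 of the gate's markers were held by 34 of 116 p25OE members and 35 of 84 WT members, and only 2 of them by 37 p25OE and 18 WT members; WT members were also the deeper ones, and the part of depth was not tested.

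Cells just outside the gate met the hormone condition with 1 of the 4 markers: 46 in p25OE and 19 in WT at 14 weeks, 8 in p25OE and 214 in WT at 40 weeks. Their median Cga was 2.67% in p25OE and 1.46% in WT at 14 weeks, beside 3.42% in p25OE and 1.77% in WT for members that just passed with 2 markers. At 40 weeks the 214 WT cells outside had a median Cga of 0.13%, beside 3.38% in the WT members with 2 markers. The Tshb limit removed 4 p25OE and 2 WT cells at 14 weeks, with median Tshb of 1.67% in p25OE and 1.76% in WT; the highest Tshb of a member was 0.0733% in p25OE and 0.182% in WT.

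Most members at 14 weeks carried both β subunits. Without thinning, 79 of 116 p25OE members (68.1%, interval 58.8 to 76.5) and 57 of 84 WT members (67.9%, 56.8 to 77.6) had UMIs of Lhb and Fshb. Thinned to 1000 UMIs per cell, which left 113 p25OE and 82 WT members, both were seen in 41.6% of p25OE members (32.4 to 51.2) and 45.1% of WT members (34.1 to 56.5). At that depth 41.6% of p25OE and 43.9% of WT members had Lhb only. Members with Fshb only numbered 8 in p25OE and 1 in WT. Macrophage-gated cells of the same libraries, which should lack both genes, had Lhb alone in 22 of 733 p25OE and 7 of 559 WT cells, and both in 1 p25OE and 0 WT cells. The gate asked for Lhb or Cga and counted Fshb among its markers, so a higher share in members was fixed by their choice; the macrophage shares are given as the level of free RNA.

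Relative to Lhb, Fshb stood at a similar level in both genotypes at 14 weeks, with 34.1 Fshb UMIs per 100 Lhb UMIs in p25OE (32.2 to 36.1) and 31.8 in WT (30.4 to 33.2). There were 7.48 Lhb UMIs per 100 of Cga in p25OE and 7.09 in WT. Across cells thinned to 1000 UMIs, the Spearman correlation of Lhb with Cga was 0.67 in 113 p25OE members and 0.72 in 82 WT members. Lhb with Fshb gave 0.28 in p25OE and 0.43 in WT, and Fshb with Cga 0.34 in p25OE and 0.60 in WT. The cells of a correlation share a library and a gate on these genes, and in counts this sparse a coefficient is a description only.

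Among 382 genes detected widely enough to be ranked, those most like Lhb in both genotypes after Cga were Tgfbr3l, with a Spearman coefficient of 0.39 in p25OE and 0.57 in WT, and Scg2, with 0.38 in p25OE and 0.48 in WT. Scg2, which encodes the granule protein secretogranin II, was also the gene most like Fshb after Cga, with 0.33 in p25OE and 0.56 in WT. mt-Co3 followed for Lhb with 0.32 in p25OE and 0.31 in WT, and Epcam for Fshb with 0.21 in p25OE and 0.22 in WT. Genes were ranked by the lower of their p25OE and WT coefficients at 14 weeks. A likeness in both libraries was therefore fixed by the ranking, and whether the libraries share it was not tested.

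Outside the gate's own genes, Tgfbr3l had the highest level of the 15 genes that stood out most in members against all other cells in 3 libraries. It encodes a membrane protein related to betaglycan that serves as an inhibin B co-receptor in mouse gonadotrophs. Its level was 927 CPM in p25OE and 1234 CPM in WT members at 14 weeks, against 5.27 CPM in the other p25OE cells and 2.82 CPM in the other WT cells. In Tshb-high cells it was 83.5 CPM in p25OE and 0 in WT. Tgfbr3l had at least 1 UMI in 102 of 116 p25OE members and 79 of 84 WT members.

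Transcription factors among these 15 genes were Nr0b1, which encodes DAX1, a partner and repressor of SF-1, and the helix-loop-helix factor Nhlh2. Nr0b1 stood at 70.8 CPM in p25OE and 56.8 CPM in WT members, and Nhlh2 at 49.4 CPM in p25OE and 92.6 CPM in WT. Secreted proteins and enzymes were Rnase1, the pancreatic-type ribonuclease, at 113 CPM in p25OE and 137 CPM in WT, the sulfotransferase Sult5a1 at 72.7 CPM in p25OE and 39.7 CPM in WT, the metalloendopeptidase Mmel1 at 22.3 CPM in p25OE and 15.4 CPM in WT, and Slurp2 at 34.9 CPM in p25OE and 43.0 CPM in WT. Adcy8, a calcium-stimulated adenylyl cyclase, Chrna9, a nicotinic receptor subunit, Atp6v1g3, a proton pump subunit, Retn, which encodes resistin, and Rarres1 stayed at or below 34.2 CPM in the 14-week members. Speer4e, Gm21083 and Gm10354 complete the 15; they belong to a family of near-identical copies, so reads may have been split between them and their levels are uncertain.

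For the comparison of genotypes at 14 weeks, UMIs were summed over the members of each library, scaled by the median ratio of the genes, and given as scaled CPM, which sets the scaled counts against the geometric mean of the members' UMI totals. A gene was measured when it had at least 50 UMIs in the 2 libraries together, and counted as higher or lower from 1.5-fold on. Of 7282 measured genes 578 were higher in p25OE (7.94%) and 790 lower (10.8%); their log2 ratios had a median of -0.04. The interval lay wholly beyond 1.5-fold for 83 genes higher (1.14%) and 112 lower (1.54%) in p25OE. The split of calls depended on the scaling. With plain CPM, in which every ratio is larger by 0.22 on the log2 scale, 1200 genes were higher and 400 lower; with CPM outside the hormone genes 737 were higher and 597 lower; and with members thinned to 2000 UMIs 174 were higher and 70 lower. Without the members with a second cell type 488 of 5571 genes were higher in p25OE (8.76%) and 580 lower (10.4%).

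**Figure D2:**
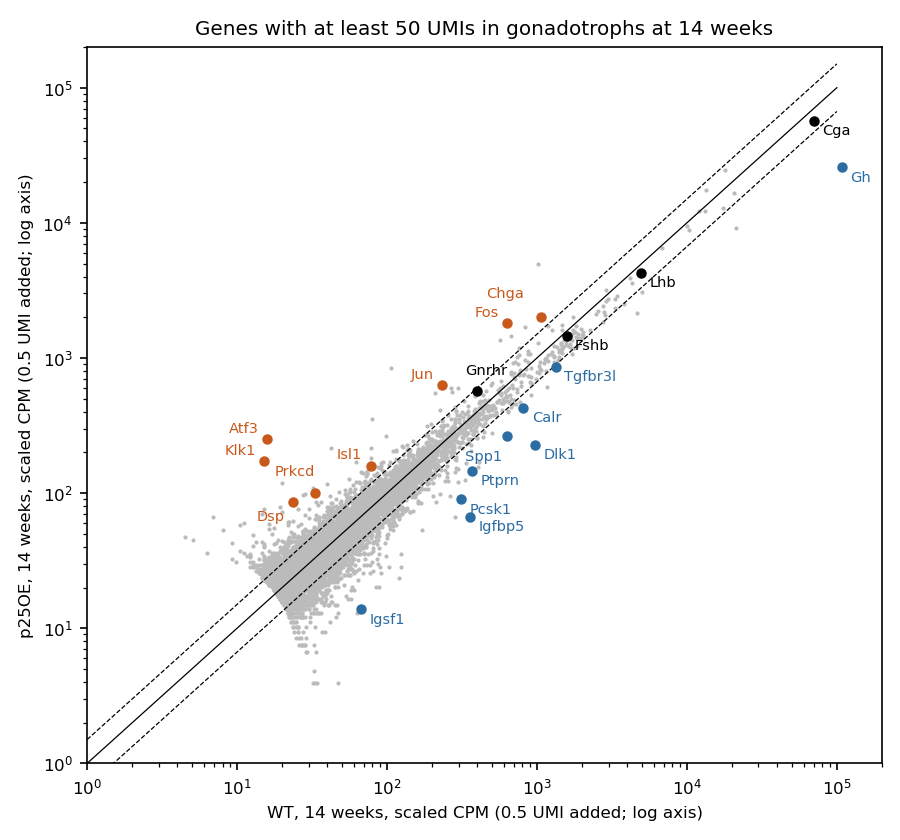
Scaled CPM of 7282 genes in 14-week gonadotrophs, p25OE on the vertical and WT on the horizontal axis (both log), with 0.5 UMI added; the solid line marks equal levels and the dashed lines 1.5-fold. Cga, Lhb and Fshb lie within the dashed lines, Atf3 and Klk1 far above and Igsf1 and Gh far below them.

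The hormone subunits stayed within 1.5-fold at 14 weeks. Lhb had 4754 UMIs in p25OE and 8343 in WT, or 4274 scaled CPM in p25OE and 4959 in WT, a ratio of p25OE to WT of 0.862 (0.832 to 0.893). Fshb had 1457 scaled CPM in p25OE and 1577 in WT, a ratio of 0.924 (0.868 to 0.983), and Cga 57136 in p25OE and 69903 in WT, a ratio of 0.817 (0.810 to 0.825). These ratios were lower without the members with a second cell type, at 0.716 for Lhb, 0.672 for Fshb and 0.629 for Cga. The last of these passes 1.5-fold, so the size of the Cga difference depends on which cells are counted.

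Over all members, the receptor and the transcription factors of the gate were level or above in p25OE. Gnrhr had 567 scaled CPM in p25OE and 400 in WT, a ratio of 1.42 (1.27 to 1.58), which was 1.07 without the members with a second cell type. The ratio was 1.25 for Foxl2 (1.06 to 1.48) and 1.12 for Nr5a1 (0.881 to 1.41). Without the members with a second cell type it was 1.05 for Foxl2 (0.873 to 1.27) and 0.941 for Nr5a1 (0.721 to 1.23). The interval of Gnrhr without them was 0.946 to 1.21, so it included 1, as those of Foxl2 and Nr5a1 did. Each member had to show UMIs of 2 of these genes or Fshb, and p25OE members had fewer UMIs; the part of depth in these ratios was not tested.

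Ratios of the other cell types' hormones depended on the members with a second cell type. Gh had 25787 scaled CPM in p25OE members and 108498 in WT members, a ratio of 0.238, which was 0.516 without those cells. Pomc had a ratio of 0.436 with them and 1.69 without them, so its direction turned round. Prl had a ratio of 1.31 with them and 1.05 without. Median shares of a member's UMIs were higher in p25OE for each of these hormones. For Gh the median was 0.45% in p25OE and 0.275% in WT. It was 0.121% in p25OE and 0.0654% in WT for Pomc, and 0.747% in p25OE and 0.463% in WT for Prl. The medians of Gh and Pomc thus went the other way from their summed ratios over all members. Without the members with a second cell type the Gh median was 0.417% in p25OE and 0.227% in WT. Macrophage-gated cells also had higher medians in p25OE, with Gh at 0.871% in p25OE and 0.392% in WT. Their Prl median was 1.68% in p25OE and 1.21% in WT, and their Pomc median 0.207% in p25OE and 0.143% in WT. The part of free RNA in the members' medians was not tested. Tshb had 40 UMIs in p25OE and 117 in WT, a ratio of 0.517 (0.352 to 0.746), and 1 WT member held 57.3% of the WT UMIs. Unlike the others, Tshb lay further from 1 without those cells, at 0.277 (0.168 to 0.441).

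Markers and lineage factors that the gate did not use differed in both directions. Of 17 listed gonadotroph markers 13 were measured, 2 higher and 4 lower in p25OE, beside 7.94% higher and 10.8% lower over all measured genes; with plain CPM 3 were higher and 3 lower. Isl1, the LIM homeodomain factor of the gonadotroph lineage, had 159 scaled CPM in p25OE and 77.3 in WT, a ratio of 2.06 (1.63 to 2.60), and 1.87 without the members with a second cell type. Its ratio was 0.474 in Gh-high, 1.71 in Prl-high and 2.52 in Pomc-high cells. Lhx3, a LIM homeodomain factor of the whole anterior lobe, had a ratio of 1.53 (1.10 to 2.13).

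Tgfbr3l was lower, at 859 scaled CPM in p25OE and 1331 in WT, a ratio of 0.646 (0.598 to 0.697), and 0.523 without the members with a second cell type. Gata2, a zinc-finger factor of gonadotrophs and thyrotrophs, had a ratio of 0.670 (0.483 to 0.919), just inside 1.5-fold, and 0.556 without those cells. Spp1, which encodes osteopontin, had 265 scaled CPM in p25OE and 628 in WT, a ratio of 0.423 (0.370 to 0.481), while its ratio was 1.36 in Gh-high, 3.21 in Prl-high and 4.13 in Pomc-high cells. Inhbb, the βB subunit of activin B and inhibin B, had 14 UMIs in p25OE and 52 in WT, a ratio of 0.407 (0.208 to 0.746).

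Dlk1, a paternally expressed Notch ligand homologue, was the most unequal of these markers. It had 227 scaled CPM in p25OE and 971 in WT, a ratio of 0.234 (0.204 to 0.268), and 0.152 without the members with a second cell type. It was seen in 33 of 116 p25OE members and 46 of 84 WT members, and a single cell held 22.5% of its p25OE UMIs and 16.9% of its WT UMIs. In Gh-high cells its ratio was 0.915 and in Tshb-high cells 1.20. It was past 1.5-fold lower in Prl-high cells, at 0.587, and in Pomc-high cells, at 0.596 (0.565 to 0.628). Pitx1, Nr0b1, Foxp2 and Chst8, whose product sulfates the sugar chains of luteinizing hormone, lay between 0.911 and 1.23.

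The wider list of lineage factors had 27 of 34 genes measured. Of these 4 were higher (14.8%) and 5 lower (18.5%) in p25OE, beside 7.94% higher and 10.8% lower over all genes. With plain CPM 6 were higher and 4 lower. Pou1f1, which encodes PIT1, the factor of somatotrophs, lactotrophs and thyrotrophs, had 38 UMIs in p25OE and 164 in WT, a ratio of 0.351 (0.240 to 0.501), with 12 of 116 p25OE members and 33 of 84 WT members showing it. Removing the members with a second cell type left it at 0.310. Neurod4 had a ratio of 0.325 (0.210 to 0.488), Nhlh2 0.459 (0.329 to 0.632) and Zbtb20 0.630 (0.563 to 0.704); the ratio of Neurod4 in Gh-high, Prl-high and Pomc-high cells lay between 0.955 and 1.18.

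GnRH signalling genes as a list sat at the background. Of 53 listed genes 43 were measured, 3 higher (6.98%) and 5 lower (11.6%) in p25OE, beside 7.94% higher and 10.8% lower over all genes. Their log2 ratios had a median of 0.02. Prkcd, which encodes protein kinase C delta, had 99.8 scaled CPM in p25OE and 32.7 in WT, a ratio of 3.05 (2.19 to 4.30), and was seen in 51 of 116 p25OE members and 31 of 84 WT members. Its ratio was 2.95 without the members with a second cell type and 0.958 in Gh-high cells. Prkcb had a ratio of 1.65 (1.22 to 2.22) and Mapk14, which encodes p38α, 1.51 (0.962 to 2.38).

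On the lower side was Prkca at 0.560 (0.318 to 0.951). Camk2d, a calmodulin-dependent kinase subunit, had a ratio of 0.422 (0.269 to 0.642), Adcy5, an adenylyl cyclase, 0.458 (0.306 to 0.669), and Creb1 0.491 (0.300 to 0.780). Rgs2, which encodes a regulator that shortens Gq signalling, had 29.7 scaled CPM in p25OE and 87.4 in WT, a ratio of 0.340 (0.225 to 0.498). The G proteins themselves were level, with 1.01 for Gnaq and 0.951 for Gnas.

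Early genes that GnRH induces were the list with the largest share of genes higher in p25OE. Of 35 listed genes 26 were measured, 14 higher (53.8%) and 2 lower; their log2 ratios had a median of 0.62 beside -0.04 over all genes. Leaving out the members with a second cell type, 13 of 21 were higher and 1 lower. Many genes of the list were also higher in other cells of the p25OE gland. In Gh-high cells 21 of 33 were higher and 2 lower, where 6.93% of all genes were higher and 7.24% lower, and in Prl-high cells 17 of 33 were higher and 0 lower, where 9.37% of all genes were higher and 5.35% lower. In Pomc-high cells the list went both ways, with 17 of 33 higher and 7 lower, where 14.1% of all genes were higher and 6.71% lower. In Tshb-high cells, the nearest class by its hormone subunit, 1 of 12 was higher and 3 lower, where 206 of all 2300 measured genes were higher and 147 lower.

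Fos, the central AP-1 component, had 2006 UMIs in p25OE and 1061 in WT, or 1803 scaled CPM in p25OE and 631 in WT, a ratio of 2.86 (2.65 to 3.08). Jun had a ratio of 2.70 (2.38 to 3.06), Fosb 2.27 (2.01 to 2.57), Junb 2.03 (1.89 to 2.17) and Jund 1.56 (1.45 to 1.69). All 5 AP-1 genes were thus higher. Egr1, the early factor that acts on the Lhb promoter, had 1014 scaled CPM in p25OE and 733 in WT, a ratio of 1.38 (1.28 to 1.501) that did not reach 1.5-fold.

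Atf3, a stress-induced partner of AP-1, had the highest ratio of all named genes. It had 278 UMIs in p25OE and 26 in WT, or 250 scaled CPM in p25OE and 15.4 in WT, a ratio of 16.2 (10.8 to 25.2), and was seen in 63 of 116 p25OE members and 14 of 84 WT members. Its ratio was 13.7 in Gh-high, 1.94 in Prl-high and 3.50 in Pomc-high cells. Egr2 and the MAP kinase phosphatase Dusp5 had large ratios from few counts: Egr2 had 40 UMIs in p25OE and 10 in WT, a ratio of 6.05 (2.97 to 13.6), and Dusp5 had 50 in p25OE and 8 in WT, a ratio of 9.45 (4.45 to 23.1).

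The nuclear receptor Nr4a1 had a ratio of 2.74 (2.21 to 3.41), Ier2 2.63 (2.30 to 3.01), Btg2 2.36 (2.18 to 2.57) and Klf4 2.18 (1.497 to 3.19). Zfp36, an mRNA-destabilising protein, had 1.80 (1.45 to 2.24) and Klf2 1.51 (1.03 to 2.22). Dusp1 at 1.45 and Nr4a2 at 1.04 did not reach 1.5-fold. The 2 genes on the lower side were Rgs2 and the cyclic AMP modulator Crem, at 0.665 (0.447 to 0.974).

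**Figure D3:**
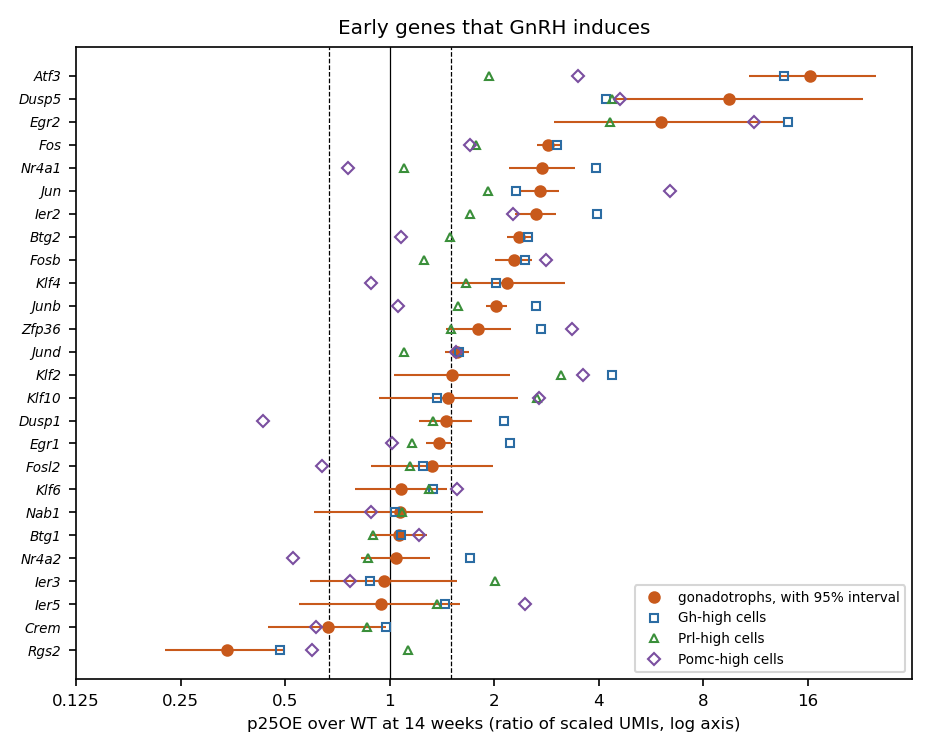
Ratio of p25OE to WT at 14 weeks for the 26 measured GnRH-induced early genes (log axis): filled circles with 95% counting intervals are gonadotrophs, open symbols the Gh-high, Prl-high and Pomc-high cells of the same libraries, dashed lines 1.5-fold. Atf3, Fos and Jun lie above 1.5-fold in gonadotrophs and in all 3 other classes, and Rgs2 has the lowest gonadotroph ratio of the list.

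In the activin and BMP list 21 of 40 genes were measured, 2 higher and 5 lower in p25OE, beside 7.94% higher and 10.8% lower over all genes; their log2 ratios had a median of -0.12. With plain CPM 4 were higher and 3 lower and the median was 0.10, so the balance of the list depends on the scaling. Leaving out the members with a second cell type, 2 of 17 were higher and 6 lower. The transcriptional corepressor Tgif1 had a ratio of 1.77 (1.14 to 2.76) and Id4 1.61 (1.13 to 2.29). Smad1, which transmits BMP signals, had 0.601 (0.383 to 0.922), and the BMP targets Id1 and Id3 had 0.571 (0.323 to 0.971) and 0.284 (0.161 to 0.473). Single cells held 65.0% of the p25OE UMIs of Id1 and 44.4% of those of Id3. Inhbb and Tgfbr3l, described above, are the other 2 lower genes.

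Steroid receptors and their cofactors were close to level, with 13 of 19 measured, 1 higher (7.69%) and 0 lower at 1.5-fold. Over all genes 7.94% were higher and 10.8% lower. The higher gene of the list was the coactivator Ncoa3, at 1.66 (0.989 to 2.79). Esr1, the oestrogen receptor that mediates feedback on gonadotrophs, had a ratio of 1.05, and the glucocorticoid receptor Nr3c1 1.01. Pgr, the progesterone receptor, was lower by less than 1.5-fold at 0.677 (0.477 to 0.949). Among 9 measured receptors of other hormones 3 were lower: the thyroid hormone receptor Thrb at 0.236 (0.108 to 0.463), the receptor Ghrhr of somatotrophs at 0.454 (0.237 to 0.821) and the insulin receptor Insr at 0.537 (0.333 to 0.844).

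Peptides and secreted factors were the list with the largest share of genes lower in p25OE: of 42 genes 16 were measured, 3 higher and 8 lower (50%, beside 10.8% over all genes); their log2 ratios had a median of -0.56. Leaving out the members with a second cell type, 7 of 13 were lower. In Gh-high cells 12 of 25 genes of the list were lower and 3 higher, with a median log2 ratio of -0.53. In Prl-high cells 4 of 26 were lower and 10 higher, and in Pomc-high cells 8 of 32 were lower and 9 higher. Igfbp5, an IGF-binding protein, had 66.5 scaled CPM in p25OE and 357 in WT, a ratio of 0.186 (0.144 to 0.237), and was seen in 28 of 116 p25OE members and 40 of 84 WT members. The neuropeptide Gal had 85.4 scaled CPM in p25OE and 211 in WT, a ratio of 0.405 (0.319 to 0.509). Gh-high cells also had low ratios of both, at 0.242 for Igfbp5 and 0.226 for Gal.

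The chemokine Cx3cl1 had a ratio of 0.496 (0.283 to 0.833), Sparcl1 0.396 (0.184 to 0.783), and the metalloproteinase inhibitors Timp1 and Timp2 had 0.605 (0.341 to 1.04) and 0.639 (0.503 to 0.807). On the higher side, Vegfa, the endothelial growth factor, had 146 scaled CPM in p25OE and 73.1 in WT, a ratio of 1.99 (1.57 to 2.54), and Timp3 had 1.62 (1.05 to 2.50). Pdyn and Vip are set by single cells: 1 p25OE member held 87.8% of the p25OE UMIs of Pdyn, and 1 WT member 96.3% of the WT UMIs of Vip.

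Genes of the secretory granule and exocytosis had a median ratio below 1. Of 45 genes 44 were measured, 2 higher (4.5%) and 10 lower (22.7%), beside 7.94% higher and 10.8% lower over all genes. Their log2 ratios had a median of -0.35. With plain CPM 4 were higher and 4 lower and the median was -0.13, so the count depends on the scaling. The median of the ribosomal protein genes was as low, at -0.34. Without the members with a second cell type 3 were higher and 14 lower of 40. The prohormone convertase gene Pcsk1 had 89.9 scaled CPM in p25OE and 313 in WT, a ratio of 0.288 (0.230 to 0.357), and was seen in 43 of 116 p25OE members and 71 of 84 WT members. Its ratio was 0.581 in Gh-high, 0.653 in Prl-high and 0.565 in Pomc-high cells.

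Ptprn, which encodes the granule membrane protein IA-2, had 146 scaled CPM in p25OE and 371 in WT, a ratio of 0.393 (0.328 to 0.468). The peptide-processing enzymes Cpe and Pam had 0.613 (0.553 to 0.679) and 0.561 (0.463 to 0.675). The calcium sensors and their relatives Syt7, Syt11 and Syt5 had 0.504, 0.579 and 0.595, and the vacuolar pump subunit gene Atp6ap1 had 0.593 (0.448 to 0.776). Nucb2 had 0.613 and Syn1 0.639, the last with an interval of 0.353 to 1.11.

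The granins did not go together. Chga, chromogranin A, had 2020 scaled CPM in p25OE and 1060 in WT, a ratio of 1.91 (1.79 to 2.03), with 1 member holding 26.6% of the p25OE UMIs. Its median per cell was 0.113% of UMIs in p25OE members and 0.0777% in WT members. Of the summed UMIs of macrophage-gated cells, Chga took 0.0533% in p25OE and 0.00264% in WT. In all kept cells other than members it took 0.106% in p25OE and 0.0351% in WT. Tshb-high cells went the other way, with 0.0842% in p25OE and 0.272% in WT. Chgb, chromogranin B, had 1188 scaled CPM in p25OE and 1766 in WT, a ratio of 0.673 (0.630 to 0.718), but the median per cell was 0.0949% in p25OE and 0.0644% in WT, the other way round, and 1 WT member held 17.2% of the WT UMIs. Macrophage-gated cells had Chgb at 0.0678% of summed UMIs in p25OE and 0.0257% in WT. The part of free RNA in the values of Chga and Chgb was not tested. Scg2 had a ratio of 0.935.

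**Figure D4:**
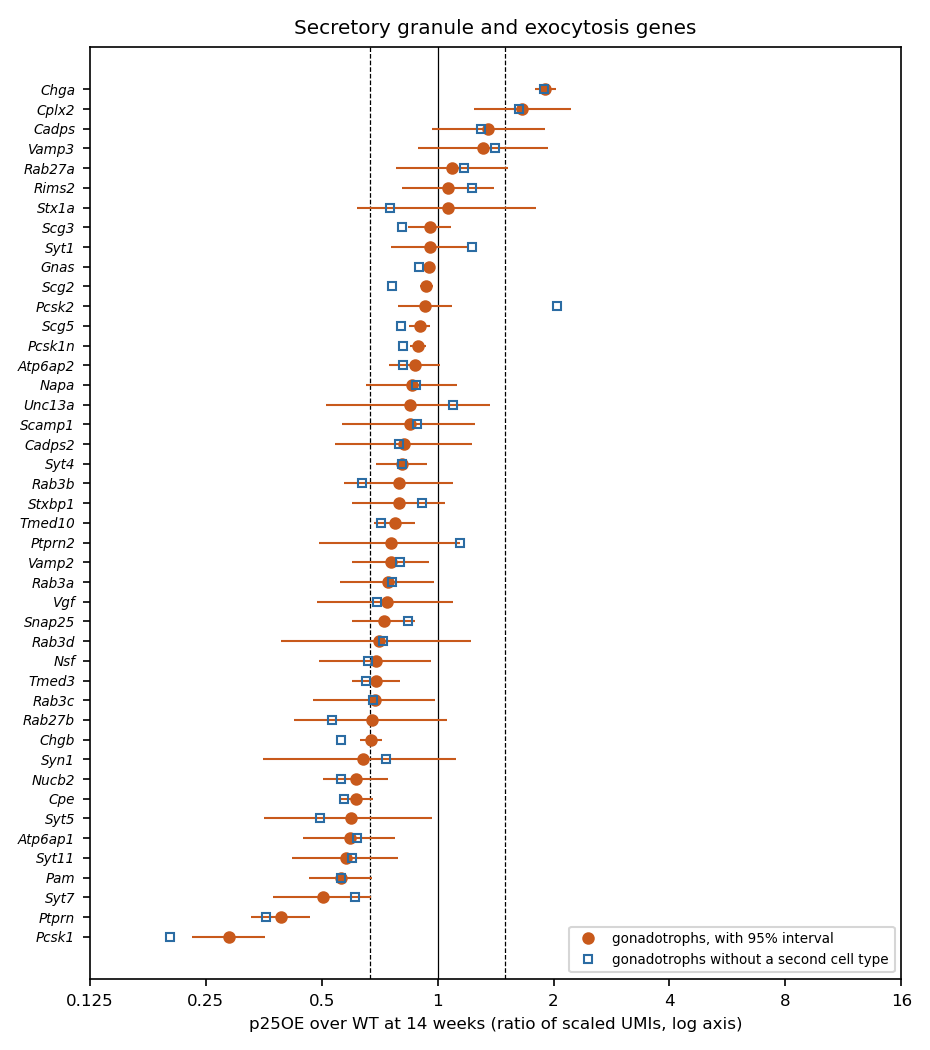
Ratio of p25OE to WT at 14 weeks for the 44 measured secretory granule and exocytosis genes (log axis): filled circles with 95% counting intervals are all gonadotrophs, open squares the gonadotrophs without a second cell type, dashed lines 1.5-fold. Chga and Cplx2 lie above the upper line, and Pcsk1 and Ptprn lie lowest with or without those cells.

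Genes of the endoplasmic reticulum, where the subunits fold and receive their sugar chains, also had a median ratio below 1. Of 40 N-glycan genes 32 were measured, 1 higher and 8 lower (25%, beside 10.8% over all genes); their log2 ratios had a median of -0.35. With plain CPM 3 were higher and 4 lower and the median was -0.13, so this count too depends on the scaling. Leaving out the members with a second cell type, 0 of 30 were higher and 8 lower. The oligosaccharyltransferase subunit genes Stt3a, Rpn2, Magt1 and Ostc had ratios of 0.515, 0.520, 0.574 and 0.624, and the chaperone gene Calr had 429 scaled CPM in p25OE and 812 in WT, a ratio of 0.528 (0.475 to 0.587). Further along the pathway, the mannosidase gene Man1a had 0.353 (0.182 to 0.639), the sialyltransferase gene St6gal1 0.579 (0.370 to 0.886) and B4galt1 0.630 (0.321 to 1.18). The 1 higher gene was B4galnt4, which adds the sugar that Chst8 sulfates, at 1.57 (0.882 to 2.80).

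In the unfolded protein response list 26 of 30 genes were measured. Of these 2 were higher (7.69%) and 7 lower (26.9%), beside 7.94% higher and 10.8% lower over all genes. Their log2 ratios had a median of -0.38. Plain CPM gave 3 higher and 4 lower, with a median of -0.16. Leaving out the members with a second cell type gave 1 higher and 8 lower of 23. Sdf2l1 had 0.507 (0.414 to 0.616), Manf 0.561 (0.491 to 0.639), Dnajb9 0.573 (0.460 to 0.710), Dnajc3 0.601, Pdia4 0.617 and the sensor gene Atf6 0.584 (0.340 to 0.970). Calr is on both lists. Prl-high cells had 12 of 30 lower and 0 higher, where 5.35% of all genes were lower, and Gh-high cells 1 lower and 2 higher. The higher genes in gonadotrophs were Ppp1r15a, which encodes the stress-induced phosphatase subunit GADD34, at 2.73 (2.14 to 3.51), and Asns at 1.71 (1.08 to 2.70).

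Among ion channels and calcium-handling genes 31 of 55 were measured. Of these 2 were higher (6.45%) and 8 lower (25.8%), beside 7.94% higher and 10.8% lower over all genes. With plain CPM 4 were higher and 5 lower. Without the members with a second cell type 0 of 24 were higher and 3 lower. The potassium channel gene Kcnk1 had a ratio of 1.73 (1.29 to 2.32) and Trpm7 1.65 (1.17 to 2.32). The sodium pump subunit gene Atp1b1 had 122 scaled CPM in p25OE and 254 in WT, a ratio of 0.481 (0.393 to 0.584). The glutamate receptor gene Gria1 had 0.421 (0.250 to 0.683), the GABA receptor gene Gabrb1 0.402 (0.221 to 0.694) and the cation channel gene Trpc1 0.329 (0.148 to 0.661). Scn2a, Kcnmb4 and Grin1 lay between 0.545 and 0.654.

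Transcripts of Cdk5 and its activators had low counts. Cdk5r1, the gene of p35 and p25, had 21 UMIs in p25OE and 30 in WT members, a ratio of 1.06 (0.576 to 1.91); the labels do not say whether transgene transcripts carry the part of Cdk5r1 that the 3′ reads cover, so this does not check the label. Cdk5 had a ratio of 1.11 (0.722 to 1.69) and Cdk5r2 0.733 (0.377 to 1.37). In the list of Cdk5 and its partners 10 of 16 were measured. Of these 1 was higher (Mapt, the tau gene, at 1.75, 1.06 to 2.90) and 1 lower (Cdk16 at 0.643, 0.426 to 0.955). Each is 10% of the list, beside 7.94% higher and 10.8% lower over all genes.

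Genes of mitosis, which were high in other hormone cells of the p25OE gland, were scarce in p25OE gonadotrophs. The 35 genes of G2 and mitosis summed to 159 CPM in p25OE members (136 to 185) and 143 CPM in WT members (126 to 162). The same sum was 346 CPM in p25OE and 169 CPM in WT among Gh-high cells, 253 CPM in p25OE and 88.2 CPM in WT among Prl-high cells, and 777 CPM in p25OE and 195 CPM in WT among Pomc-high cells. With the scaling used for single genes, the ratio of p25OE to WT of this sum was 0.954 (0.780 to 1.16) in gonadotrophs and 1.17 (0.907 to 1.52) in those without a second cell type. The scaled ratio was 2.04 (1.96 to 2.13) in Gh-high, 2.82 (2.70 to 2.95) in Prl-high and 3.63 (3.48 to 3.79) in Pomc-high cells. Only the gonadotroph intervals include 1 among these 4 classes. Mki67, the proliferation marker, had 0 UMIs in p25OE members and 2 in WT members; a count of 0 allows up to 3 UMIs.

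Genes of replication licensing and S phase were somewhat higher. Their 39 genes summed to 630 CPM in p25OE members (583 to 680) and 398 CPM in WT members (370 to 428). The ratio of p25OE to WT of this sum was 1.58 with plain CPM and 1.36 (1.22 to 1.52) when scaled, and 1.38 (1.21 to 1.57) scaled without the members with a second cell type. It was also above 1 in the other classes, with scaled ratios of 1.401 (1.36 to 1.45) in Gh-high, 1.15 (1.11 to 1.19) in Prl-high, 2.73 (2.66 to 2.81) in Pomc-high and 1.42 (1.32 to 1.53) in macrophage-gated cells. Of 9 measured genes 3 were higher and 0 lower: the helicase subunit gene Mcm7 at 1.71 (1.02 to 2.90), Rpa2 at 1.79 (1.04 to 3.11) and Dut at 1.56 (1.18 to 2.06). Mcm2 had 17 UMIs in p25OE, 47.1% of them in 1 member, and 22 in WT, a ratio of 1.17 (0.583 to 2.31). Without the members with a second cell type 4 genes of the list were measured and 0 passed 1.5-fold in either direction.

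CDK inhibitors and p53 targets had 21 of 29 genes measured, 7 higher (33.3%, beside 7.94% over all genes) and 2 lower; their log2 ratios had a median of 0.35. Leaving out the members with a second cell type, 6 of 18 were higher and 3 lower. Other classes also had genes of this list higher: 8 of 27 in Gh-high, 7 of 29 in Prl-high and 9 of 29 in Pomc-high cells. There 2 were lower in Gh-high, 1 in Prl-high and 2 in Pomc-high cells. The difference between classes was not tested. Cdkn1b, which encodes p27, had 314 scaled CPM in p25OE and 184 in WT, a ratio of 1.70 (1.46 to 1.99), and Cdkn1c, which encodes p57, had 1.73 (1.44 to 2.09). The stress genes Gadd45b and Gadd45g had 2.40 (1.72 to 3.37) and 1.65 (1.41 to 1.92). Cdkn1a, which encodes p21, had 2.10 (1.34 to 3.32), but 1 member held 72.0% of its p25OE UMIs and its ratio is that of 1 cell. The cyclin D genes lay on the lower side, with Ccnd2 at 205 scaled CPM in p25OE and 363 in WT, a ratio of 0.564 (0.483 to 0.658), and Ccnd1 at 0.390 (0.256 to 0.580).

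Of 12 measured interferon response genes 5 were higher (41.7%, beside 7.94% over all genes) and 1 lower; their log2 ratios had a median of 0.47. Leaving out the members with a second cell type, 7 of 10 were higher and 2 lower. Bst2, a tethering antiviral protein, had a ratio of 1.96 (1.41 to 2.73), Ifi27 1.83 (1.59 to 2.10), Irf1 1.80 (1.27 to 2.56), Irf9 1.66 (1.06 to 2.62) and Trim25 1.51 (0.992 to 2.31). Ifitm3 was the lower one at 0.368 (0.235 to 0.561), with single cells holding 32.1% of its p25OE UMIs and 30.4% of its WT UMIs. Gh-high cells had 13 of 29 genes of the list higher and 1 lower, Prl-high cells 23 of 28 higher and Pomc-high cells 23 of 30 higher. Over all genes the share higher was 6.93% in Gh-high, 9.37% in Prl-high and 14.1% in Pomc-high cells. The differences between classes were not tested. MHC class I genes gave 1 higher and 1 lower of 6.

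Housekeeping lists varied in their share of genes past 1.5-fold, beside 7.94% higher and 10.8% lower over all measured genes. The share lower was 10.1% for ribosomal protein genes. The share higher was 16.7% for heat shock genes and 23.1% for mitochondrially encoded genes, both short lists. Of 65 nuclear oxidative phosphorylation genes 0 reached 1.5-fold in either direction, and the median log2 ratio was -0.11. Of 79 cytosolic ribosomal protein genes 0 were higher and 8 lower, the median log2 ratio being -0.34; with plain CPM 2 were lower and the median was -0.12. Of 12 heat shock genes 2 were higher and 1 lower. Among the 13 mitochondrially encoded genes mt-Nd4l, mt-Atp8 and mt-Nd6 were higher, at 2.16, 2.08 and 1.83, and 0 were lower. Those 3 ratios were at or above 1.24 in Gh-high, Prl-high and Pomc-high cells too. Of 14 measured glucocorticoid-induced genes and metallothioneins 0 were higher and 2 lower, Tsc22d3 at 0.496 and Zbtb16 at 0.557; with plain CPM 4 were higher and 2 lower.

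**Figure D5:**
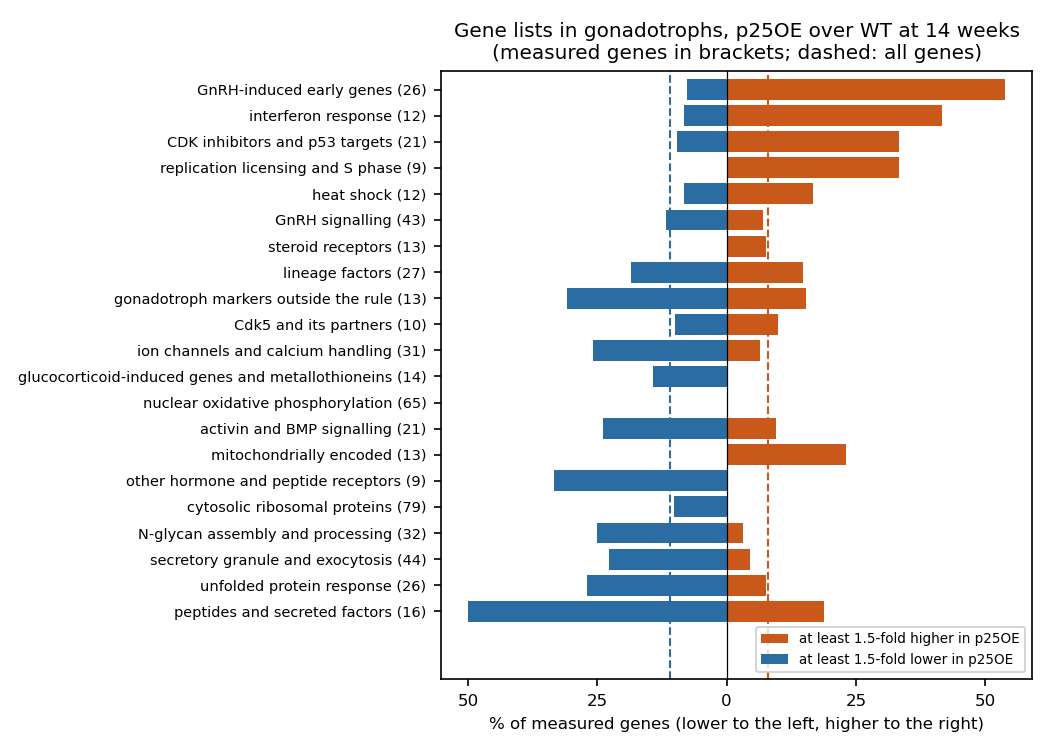
Share of the measured genes of each list (number in brackets) that were at least 1.5-fold higher in p25OE, to the right, or lower, to the left, in 14-week gonadotrophs, ordered by the list's median ratio; dashed lines are the shares over all 7282 genes. Early genes reach 53.8% higher, and peptides and secreted factors 50% lower.

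The rule for single genes took the 12 highest and 12 lowest ratios among genes with at least 100 UMIs and an interval beyond 1.5-fold; 47 genes higher and 56 lower met it. Besides Atf3, the highest were the kallikrein Klk1 at 11.6 (7.59 to 18.3), AY036118 at 7.92 (6.74 to 9.34), the neurofilament gene Nefl at 6.05 (4.11 to 9.15), the aldo-keto reductase gene Akr1cl at 5.14 (3.26 to 8.39) and Lars2, a mitochondrial leucyl-tRNA synthetase, at 5.13 (3.93 to 6.79). AY036118 and Lars2 were high in every class, with ratios of 4.03 to 6.33 and 3.67 to 5.06 in Gh-high, Prl-high and Pomc-high cells. Klk1 was seen in 32 of 116 p25OE members and 7 of 84 WT members, and 1 WT member held 64% of its WT UMIs. It was high in other cells too, with ratios of 2.09 in Gh-high, 6.92 in Prl-high and 9.02 in Pomc-high cells. Nefl had 3.33 in Gh-high, 5.7 in Prl-high and 3.82 in Pomc-high cells.

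Next came Parp1 at 4.16, of whose p25OE UMIs 1 member held 63.6%, the matricellular gene Cyr61 at 3.67 (2.42 to 5.68), Wfdc2 at 3.54 (2.49 to 5.09), the co-chaperone gene Dnajb1 at 3.52 (2.47 to 5.09) and the activity-regulated gene Arc at 3.45 (2.48 to 4.86). Dsp, which encodes the junction protein desmoplakin, had 85.4 scaled CPM in p25OE and 23.2 in WT, a ratio of 3.68 (2.51 to 5.50), and 3.53 without the members with a second cell type. Its ratio was 0.507 in Gh-high, 0.733 in Prl-high and 1.24 in Pomc-high cells, so it was not higher there by 1.5-fold. Dsp was seen in 49 of 116 p25OE members and 24 of 84 WT members. Arc had ratios of 3.73 in Gh-high, 4.47 in Prl-high and 3.42 in Pomc-high cells. Those of Dnajb1 were 2.67 in Gh-high, 1.69 in Prl-high and 2.72 in Pomc-high cells. Wfdc2 had 1.10 in Gh-high, 2.40 in Prl-high and 3.57 in Pomc-high cells. For Cyr61 they were 1.64 in Gh-high, 1.20 in Prl-high and 1.54 in Pomc-high cells. Parp1 lay between 1.03 and 1.18 in these classes.

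At the low end Igsf1, an X-linked gene whose loss in humans causes central hypothyroidism, had 15 UMIs in p25OE and 113 in WT, or 13.5 scaled CPM in p25OE and 67.2 in WT, a ratio of 0.201 (0.109 to 0.345). It was seen in 10 of 116 p25OE members and 32 of 84 WT members. Its ratio was 0.198 without the members with a second cell type, and between 0.896 and 1.01 in Gh-high, Prl-high and Pomc-high cells. Dlk1, Gh, Pcsk1, Neurod4 and Rgs2, described above, are also among the 12.

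The others were the RNA Snhg18 at 0.275 (0.177 to 0.413), Nexmif at 0.311 (0.204 to 0.459), the secreted glutathione peroxidase gene Gpx3 at 0.311 (0.231 to 0.413), the receptor phosphatase gene Ptprg at 0.315 (0.187 to 0.507), Elmod1 at 0.323 (0.186 to 0.534) and Fam126b at 0.331 (0.196 to 0.535). Gpx3 had 53.04 scaled CPM in p25OE and 171 in WT, and was seen in 25 of 116 p25OE members and 66 of 84 WT members. Its ratio was 0.947 in Gh-high and 1.04 in Prl-high cells but 0.408 in Pomc-high cells. Elmod1 was closer to level, at 0.521, without the members with a second cell type.

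The X-linked RNAs Xist and Tsix describe the make-up of the libraries. Xist had 2000 scaled CPM in p25OE members and 1748 in WT members, a ratio of 1.14 (1.08 to 1.21), and was seen in 92 of 116 p25OE members and 75 of 84 WT members. Tsix had 28 UMIs in p25OE and 24 in WT. Both libraries thus held gonadotrophs with Xist, and the labels do not give the sex.

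At 40 weeks 6 p25OE members stood against 68 in WT, and their values are given only as such. Of 1485 measured genes 197 were higher (13.3%) and 416 lower (28%) in p25OE. Lhb had 83 UMIs in p25OE and 9344 in WT, or 1754 scaled CPM in p25OE and 17882 in WT, a ratio of 0.0981 (0.0780 to 0.122). Only 4 of the 6 cells had any Lhb, and 4 of the 6 had entered through Cga with under 3 Lhb UMIs. Fshb had 11 UMIs in p25OE and 286 in WT, a ratio of 0.425 (0.210 to 0.771), and Cga a ratio of 0.308 (0.288 to 0.329).

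Gnrhr in the 6 cells had 13 UMIs, against 165 in WT, a ratio of 0.870 (0.454 to 1.53), and Foxl2 had 10, against 81, a ratio of 1.36 (0.630 to 2.64). Thyrotroph markers were seen in them as well. Pou1f1 had 5 UMIs, or 121 CPM, against 4.7 CPM in the other p25OE cells and 87.1 CPM in WT members. Tshb had 7 UMIs, all in 1 cell, and Trhr and Dio2 had 2 each. Without thinning, 2 of the 6 had neither Lhb nor Fshb. Whether all 6 are gonadotrophs was not tested. Gh and Prl were low in the 6 cells, at 0.00803 and 0.0134 of the WT level. Each of the 6 held Pomc at 1.12 to 2.66% of its UMIs, and WT members had a median of 1.06%. Free RNA differed between these libraries: macrophage-gated cells thinned to 1000 UMIs had Lhb in 0 of 404 p25OE cells and Lhb alone in 27.4% of 658 WT cells. Cga was seen in 3.22% of these p25OE cells and 82.1% of these WT cells. Of the summed UMIs of macrophage-gated cells, Gh took 0.103% in p25OE and 4.24% in WT, and Prl 0.159% in p25OE and 4.80% in WT. Without thinning, macrophage-gated WT cells had a median Cga of 0.1525% and a median Lhb of 0.0245%, and both medians were 0 in p25OE. The lowest Cga of a WT member was 0.0452%. The part of free RNA in the 40-week ratios and in the 40-week member shares was not tested.

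WT members at 40 weeks had more Lhb relative to the other subunits than either 14-week library. There were 13.3 Fshb UMIs per 100 Lhb UMIs in the 6 p25OE cells (6.37 to 24.96) and 3.06 in WT members (2.71 to 3.44) at 40 weeks. Per 100 Cga UMIs there were 8.86 of Lhb in p25OE and 27.8 in WT. Thinned to 1000 UMIs, 21 of 68 WT members (30.9%) had both β subunits and 41 had Lhb only. Age, run and library cannot be told apart here, and the libraries of the 2 ages hardly shared barcodes, as described above.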

How the data were processed

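Droplet-based 3′ single-cell RNA libraries of whole mouse pituitary were compared: p25OE and WT at 14 and 40 weeks, 1 library each. The deposited files hold UMI counts per gene and barcode, made by the authors with Cell Ranger (3.0.2 per the submitters' processing notes, 3.0.1 per the file headers) on mm10; no further normalization had been applied. Barcodes with at least 500 genes and at most 20% mitochondrial UMIs were kept, and the gate in the opening paragraph chose the members. UMIs were summed over members per library and divided by median-of-ratios size factors from genes with at least 20 UMIs in both libraries. Ratios carry exact 95% conditional Poisson intervals, shares exact binomial (Clopper-Pearson) intervals, both for counting error only. Shares of cells with a UMI were also taken after thinning to 1000 UMIs. Python 3.11.15, numpy 2.4.6, scipy 1.17.1, pandas 2.3.3 and matplotlib 3.10.9 were used, and edgeR 4.0.16 for TMM factors; the ratio code was tested on simulated data. Named genes were the hormone and gate genes with Cdk5, Cdk5r1, Cdk5r2, Mcm2, Mki67, Xist and Tsix, the 15 leading genes, the 12 highest and 12 lowest ratios, and list members past 1.5-fold; other genes were named after their values were seen. The members, lists and rules were chosen with earlier results of these data known. Cells are not replicates, and no test across samples was run because each group has 1 library; a fit of genotype with age over the 4 libraries was left out.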

Additional observations from a re-analysis of the deposited data

Results flagged for a closer look

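Barcodes outside the quality filter met the gonadotroph gate as well, and they enter no comparison. They numbered 44 in p25OE and 21 in WT at 14 weeks, and 1 in p25OE and 5 in WT at 40 weeks. At 14 weeks most of them exceeded 20% mitochondrial UMIs, 35 of 44 in p25OE and 19 of 21 in WT, with a median mitochondrial share of 24.7% in p25OE and 31.7% in WT. At 40 weeks the 1 p25OE barcode had a mitochondrial share of 23.97%, and the 5 WT barcodes had fewer than 500 genes.

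For 14 of 40 named genes the ratio of p25OE to WT at 40 weeks lay on the other side of 1 from that at 14 weeks. For 3 of these the counting intervals at both ages left out 1, and the difference between ages was not tested. On the log2 scale the 40-week ratio was -6.22 for Prl, -0.99 for Xist and -3.01 for AY036118. At 14 weeks the ratios themselves were 1.31 for Prl, 1.14 for Xist and 7.92 for AY036118. All 3 rest on 6 p25OE cells at 40 weeks, in which AY036118 had 1 UMI. Prl was also unequal in macrophage-gated cells at 40 weeks, at 0.159% of summed UMIs in p25OE and 4.80% in WT. Gnrhr, with a ratio of 1.42 at 14 weeks and 0.870 at 40 weeks, and Nr5a1, with 1.12 and 0.374, are among the other 11, for which an interval included 1.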

How the results depend on the processing

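Values of 116 named genes at 14 weeks stayed within their counting interval in 1042 cases, moved beyond it in 185 and turned direction, counted only for genes past 1.5-fold, in 4: Tshb with at least 3 of the 4 markers (log2 ratio 0.53), Pomc without the members with a second cell type (0.76), and Retn (0.02) and Smad1 (0.22) with the mean of per-cell CPM; the cause was not tested. Genes within 1.5-fold crossed 1 in 21 cases, over 12 genes, among them Fshb (log2 ratio 0.10 with plain CPM and 0.23 with at most 10% mitochondrial UMIs), Prl (-0.12 with 3 markers) and Nr5a1 (-0.09 without a second cell type). The number of genes at least 1.5-fold higher in p25OE was 1200 with plain CPM, 1192 with a minimum of 20 UMIs, 81 with 200 UMIs, 4117 without a filter and 174 with members thinned to 2000 UMIs; the number lower was 400, 1486, 155, 4630 and 70. TMM factors (597 higher, 746 lower) and leaving out the 5 members with the most UMIs in each library (558 and 796), an alternative chosen after seeing the data, kept both counts within 1.5 times. Member shares at 14 weeks were 0.939% in p25OE and 0.652% in WT after thinning to 2000 UMIs, 1.03% in p25OE and 1.003% in WT with 3 markers, and 1.24% in p25OE and 0.851% in WT without a second cell type; the WT share was 0.992% with at most 10% mitochondrial UMIs. At 40 weeks they were 0.0149% in p25OE and 0.395% in WT after thinning, 0.0259% in p25OE and 0.479% in WT with 3 markers, and 0.467% in WT without a second cell type. Without thinning Lhb was seen in 90.5% of p25OE members, and Fshb in 75.9% of p25OE and 70.2% of WT members. Leaving out a replicate was not possible with 1 library per group. No paired analysis was possible because the labels give no replicate numbers; genotype was not tested over the 2 ages together. Depth limits genes under 50 UMIs and nearly all genes at 40 weeks.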
